A study of Rattus norvegicus with 47 samples.

Results

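Metallothioneins are small, cysteine-rich proteins that bind zinc and copper, and 3 of their genes were described across the brain libraries of rats that had inhaled a polychlorinated biphenyl: Mt1 (gene 24567), Mt2A (gene 689415) and Mt3 (gene 117038). The genes were found by their numeric identifiers in the count tables, which list 15319 genes per region, so the members are 3 of 15319 genes. They were chosen by 1 known result, lower counts of Mt1 and Mt2A in the striatum of PCB52 females than of sham females. The values of that comparison, and of the other striatal comparisons that use those females, are therefore given as a description with no test. Mt4, a further member of the family, had at most 4 counts in any library and was not tested.

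The study exposed male and female Sprague-Dawley rats, in the adolescent period, to vapour of PCB52 in a nose-only apparatus for 4 h a day over 28 days, with filtered air drawn over coated beads at 12 L/min. Rats were assigned to PCB52 or sham exposure at 39 days of age in males and 42 days in females, and RNA of tissue punches of striatum and cerebellum was sequenced. Every comparison of the sexes is therefore also one of age at assignment, and sex and age cannot be told apart. The labels describe training of all rats in the apparatus before assignment and do not say what the sham rats breathed. The striatal libraries came from 4 sham males, 6 PCB52 males, 6 sham females and 6 PCB52 females, and the cerebellar libraries from 5, 5, 6 and 6 in the same order. Libraries are named here by region, group and animal number, and 21 animals gave a library of both regions.

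Mt1 and Mt2A are known in many tissues as inducible genes. Their transcription rises with zinc, cadmium and other metals through the metal-responsive factor MTF1, and with glucocorticoid hormones and oxidative stress, and in brain both are expressed largely by astrocytes. Mt3 is the brain-enriched member, is found in neurons and astrocytes, was first described as a growth inhibitory factor, and is known to respond little to the inducers of the other members.

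Total counts ran from 5684508 to 8914523 in striatum and from 6524400 to 15865054 in cerebellum. Levels are given in CPM, counts scaled by library size. The summed CPM of 10 markers of striatal projection neurons ran from 5388 to 13484 in striatum and from 378 to 670 in cerebellum, and those of 10 markers of granule and Purkinje neurons from 1064 to 2048 in striatum and from 9414 to 11199 in cerebellum, so both tissue labels matched their markers. Beside them, 5 libraries held both Xist, an RNA of female cells, and Eif2s3y, a Y-linked gene, above 3 CPM: striatum sham male 3, cerebellum sham females 8 and 10, and cerebellum sham males 9 and 11. In that order Xist stood at 136, 153, 521, 267 and 299 CPM and Eif2s3y at 33.7, 31.7, 4.02, 9.99 and 30.2 CPM. In the other 39 libraries Xist was at most 1.62 CPM in males and at least 194 CPM in females, and Eif2s3y at least 39.6 CPM in males and at most 0.134 CPM in females. The Xist levels of cerebellum sham males 9 and 11 thus lay within the female range, against their label, and whether tissue of 2 animals was mixed or exchanged was not tested. Results were also computed without these 5 libraries, which are reported under their labels. Nothing in the labels says that a group's libraries came from separate cages or days, and p-values measure the spread between these animals. In bulk tissue, fewer cells of a type and less RNA per cell cannot be told apart.

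The 3 genes lie side by side on chromosome 19, in the order Nup93, Mt1, Mt2A, Mt3, Mt4. The 250 bases before each start of transcription are shown because metal response elements, the sites known to bind MTF1, cluster there in this family. They are RefSeq sequences of the assembly GRCr8, at chr19:10832976-10833225 for Mt1, chr19:10838709-10838958 for Mt2A and chr19:10856081-10856330 for Mt3, all on the minus strand and printed 5′ to 3′ in the direction of transcription. Capitals mark matches to the metal response element core, searched on both strands as TGCAC or TGCGC followed by any base and C.
Mt1: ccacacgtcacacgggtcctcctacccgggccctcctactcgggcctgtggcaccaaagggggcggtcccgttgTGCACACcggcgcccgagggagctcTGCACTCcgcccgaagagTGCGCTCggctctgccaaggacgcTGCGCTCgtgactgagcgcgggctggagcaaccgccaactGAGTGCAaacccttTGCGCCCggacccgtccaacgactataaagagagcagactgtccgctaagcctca
Mt2A: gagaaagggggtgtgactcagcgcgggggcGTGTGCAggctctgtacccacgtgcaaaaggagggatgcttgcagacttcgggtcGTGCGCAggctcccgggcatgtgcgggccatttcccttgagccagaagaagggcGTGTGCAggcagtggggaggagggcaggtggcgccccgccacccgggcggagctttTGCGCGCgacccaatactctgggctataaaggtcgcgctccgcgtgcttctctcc
Mt3: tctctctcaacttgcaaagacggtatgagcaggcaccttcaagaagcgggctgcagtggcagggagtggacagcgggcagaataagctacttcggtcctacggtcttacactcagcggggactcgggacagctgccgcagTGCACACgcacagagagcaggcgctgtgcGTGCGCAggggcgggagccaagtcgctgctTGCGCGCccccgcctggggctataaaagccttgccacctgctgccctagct

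Mt1 held 6 matches to the core, Mt2A 4 and Mt3 3. Among 33469 RefSeq promoter windows of the same length, 20.6% held at least 1 match to either form, 1.17% at least 3, 0.266% at least 4 and 0.0269% at least 6. A core of the antioxidant response element, searched on both strands as TGAC and GC with any 3 bases between them, was found once in Mt1 and once in Mt2A, and in 10.1% of all windows at least once. It began 101 bases before the start of transcription in Mt1 and 237 bases before it in Mt2A, and no match was found in the window of Mt3. The palindromic glucocorticoid response element, searched as GNACA and TGTNC with any 3 bases between them, was not found in the windows of the 3 genes and was found in 0.373% of all windows. Each window held the TATA box, searched on both strands as TATAAA and beginning 31 or 32 bases before the start, against 12.9% of all windows. The windows held 66.4%, 66.0% and 62.8% G and C bases, against a median of 51.2% over all windows. These matches describe letters only, and binding was not measured.

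**Figure D1:**
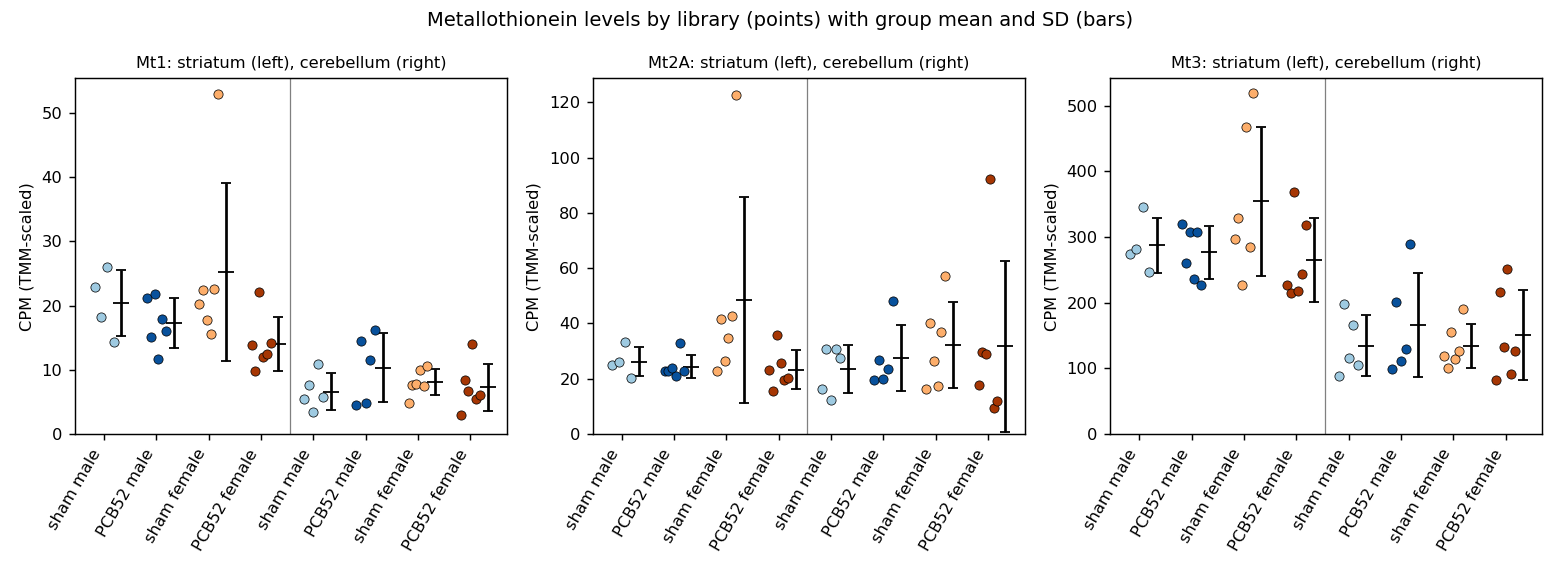
Level of each metallothionein gene in every library, in CPM scaled by TMM-adjusted library size (vertical axis), by group (horizontal axis), with striatum left of the vertical line and cerebellum right of it. Points are libraries, and bars are the group mean and SD. Mt1 and Mt3 stand higher in striatum, Mt2A does not, and striatum sham female 12 is the highest library for all 3 genes.

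Mt1 was measured in striatum at 23, 18.2, 26 and 14.4 CPM in sham males 1, 3, 9 and 11. The 6 PCB52 males ran from 11.6 to 21.8 CPM with a median of 17. Sham females ran from 15.6 to 52.9 CPM with a median of 21.3, and PCB52 females from 9.84 to 22.1 CPM with a median of 13.1. The highest value, 52.9 CPM, was striatum sham female 12, and the next library in that group stood at 22.5 CPM. In cerebellum the sham males stood at 5.39, 7.70, 3.38, 10.8 and 5.70 CPM (animals 1, 3, 7, 9 and 11), and the PCB52 males at 4.58, 14.4, 4.87, 11.5 and 16.2 CPM (animals 13, 15, 19, 21 and 23). Cerebellar sham females ran from 4.83 to 10.5 CPM with a median of 7.72, and PCB52 females from 3.03 to 13.9 CPM with a median of 6.39. Cerebellum PCB52 males 15 and 23 and PCB52 female 20 reached into the striatal range of their own groups, and no cerebellar sham library did. Those exposed libraries also had means of a list of ribosomal protein genes, described below, of 9.05, 9.58 and 9.18. Their part in the overlap was not tested. The share of all genes whose ranges stayed apart was not computed, and 80.9% of 12446 genes differed between the regions.

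Mt2A stood at 25.1, 26, 33.3 and 20.4 CPM in the same striatal sham males, and ran from 21.2 to 32.9 CPM with a median of 22.8 in PCB52 males. Striatal sham females ran from 22.8 to 123 CPM with a median of 38.2, and PCB52 females from 15.4 to 35.7 CPM with a median of 21.8. Striatum sham female 12, at 123 CPM, was again far above the others of its group, the next of which stood at 42.6 CPM. Cerebellar sham males stood at 16.2, 30.7, 12.4, 30.8 and 27.7 CPM and PCB52 males at 19.5, 26.8, 19.8, 23.5 and 48.2 CPM. Cerebellar sham females ran from 16.2 to 57.1 CPM with a median of 31.7, and PCB52 females from 9.38 to 92.2 CPM with a median of 23.4. Over all cerebellar libraries the highest Mt2A value was 9.83-fold the lowest, against 5.37-fold for Mt1 and 3.51-fold for Mt3. In striatum the corresponding ratios were 7.96, 5.37 and 2.42.

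Mt3 stood at 274, 282, 346 and 247 CPM in striatal sham males, and ran from 227 to 320 CPM with a median of 284 in PCB52 males. Striatal sham females ran from 227 to 520 CPM with a median of 313, and PCB52 females from 215 to 369 CPM with a median of 235. Its 2 highest libraries were striatum sham females 12 and 8, at 520 and 467 CPM. Cerebellar sham males stood at 87.7, 198, 116, 167 and 105 CPM and PCB52 males at 98.7, 201, 111, 130 and 289 CPM. Cerebellar sham females ran from 100.1 to 191 CPM with a median of 123, and PCB52 females from 82.3 to 251 CPM with a median of 129. As for Mt1, the sham ranges of the regions did not overlap in either sex, and cerebellum PCB52 male 23 and PCB52 females 16 and 20 reached into the striatal range of their own groups.

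By group mean, Mt1 fell in the order striatum sham females (25.2 ± 13.8 CPM, SD, n = 6), sham males (20.4 ± 5.14, n = 4), PCB52 males (17.3 ± 3.85, n = 6) and PCB52 females (14.1 ± 4.22, n = 6), then cerebellum PCB52 males (10.3 ± 5.38, n = 5), sham females (8.03 ± 2.03, n = 6), PCB52 females (7.25 ± 3.72, n = 6) and sham males (6.60 ± 2.82, n = 5). Mt3 had the same striatal order, with 354 ± 114, 287.5 ± 42.0, 277 ± 40.4 and 265 ± 63.7 CPM (SD), followed by cerebellum PCB52 males (166 ± 79.4), PCB52 females (150.0 ± 68.5), sham males (135 ± 46.0) and sham females (134 ± 33.2). Mt2A mixed the regions: striatum sham females were highest (48.5 ± 37.2 CPM), cerebellum sham females, PCB52 females and PCB52 males followed (32.4 ± 15.6, 31.7 ± 30.8 and 27.6 ± 11.9), and striatum sham males and PCB52 males, cerebellum sham males and striatum PCB52 females closed the order (26.2 ± 5.34, 24.4 ± 4.24, 23.6 ± 8.64 and 23.3 ± 6.98). For each gene, the ranges of every 2 groups next to each other in its order overlapped.

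Mt1 and Mt3 were higher in striatum than in cerebellum, and Mt2A showed no such difference. Over 22 libraries each, Mt1 averaged 19.1 ± 8.73 CPM (SD) in striatum and 8.02 ± 3.63 CPM in cerebellum, and Mt3 297 ± 77.9 and 146 ± 56.1 CPM. Mt2A averaged 31.0 ± 21.7 CPM in striatum and 29.1 ± 18.4 CPM in cerebellum. As the mean over the 4 groups, the log2 difference of striatum minus cerebellum was 1.24 ± 0.17 (SE) for Mt1, a 2.37-fold higher level (edgeR's quasi-likelihood test, Benjamini-Hochberg adjusted p = 1.00e-08), and 1.01 ± 0.13 for Mt3, 2.01-fold (adjusted p = 6.79e-09). For Mt2A it was 0.03 ± 0.21 (adjusted p = 0.915). The call for 2 of 3 members stands against a background in which 80.9% of 12446 genes differed between the regions, 38.5% higher in striatum and 42.4% lower.

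The same comparison in males alone, whose libraries took no part in the choice of genes, gave 1.18 ± 0.25 for Mt1 (edgeR adjusted p = 4.81e-05), 0.91 ± 0.20 for Mt3 (adjusted p = 7.88e-05) and -0.013 ± 0.31 for Mt2A (adjusted p = 0.973). There 72.9% of genes were called, 34.7% higher in striatum and 38.2% lower. Within the 21 animals with both regions, Mt1 was higher in striatum in 19 and Mt3 in 18, with median folds of 2.38 and 2.38, and Mt2A was higher in 15 with a median fold of 1.15. Single animals ranged from 0.861-fold to 5.02-fold for Mt1, from 0.787-fold to 4.09-fold for Mt3 and from 0.278-fold to 2.15-fold for Mt2A. Other cell types differ between the regions as well: of 12 astrocyte markers 5 were called higher in striatum and 3 lower, all 8 microglial markers were higher (median log2 difference 1.66), and so were 8 of 9 tested markers of endothelium and pericytes (median 1.20). All 8 oligodendrocyte markers (median 1.00) and all 4 tested ependymal markers (median 3.23) were also called higher. Of 9 meningeal fibroblast markers 5 were lower and 0 higher (median -0.56), and of 9 choroid plexus markers 3 were higher and 2 lower. The part of these in the metallothionein difference was not tested.

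**Figure D2:**
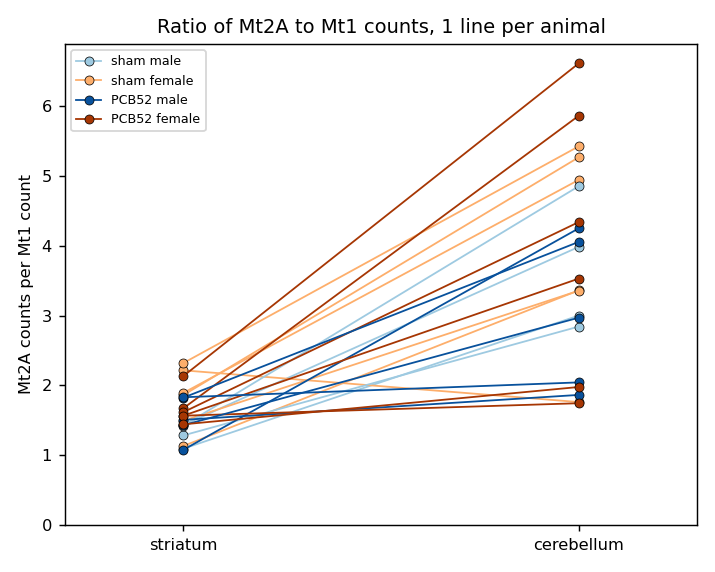
Counts of Mt2A per count of Mt1 (vertical axis) in striatum and cerebellum (horizontal axis), with 1 line for each of the 21 animals that had both libraries, coloured by group. The line rises towards cerebellum in 20 of 21 animals.

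The balance between the 2 inducible genes differed between the regions. The ratio of Mt2A to Mt1 counts, which needs no scaling between libraries, ran from 1.08 to 2.32 in striatum with a median of 1.53, and from 1.74 to 6.61 in cerebellum with a median of 3.60. Within animals the ratio was 2.19-fold higher in cerebellum, a mean log2 difference of 1.13 ± 0.62 (SD, n = 21), and was higher there in 20 of 21 animals (two-sided sign permutation test, 100000 resamples, p = 1e-05, the smallest these resamples can give). The exception was sham female 8. This ratio was chosen after the counts had been seen and restates the region differences of Mt1 and Mt2A given above, so its p is not separate evidence. Since gene lengths were not used, the ratio does not say which of the 2 transcripts was more abundant in a region. RefSeq also lists several Mt1 pseudogenes, Mt1m among them, and the related gene Mt1f, and reads shared with them could be counted for Mt1 or lost from it, so its level is uncertain.

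**Figure D3:**
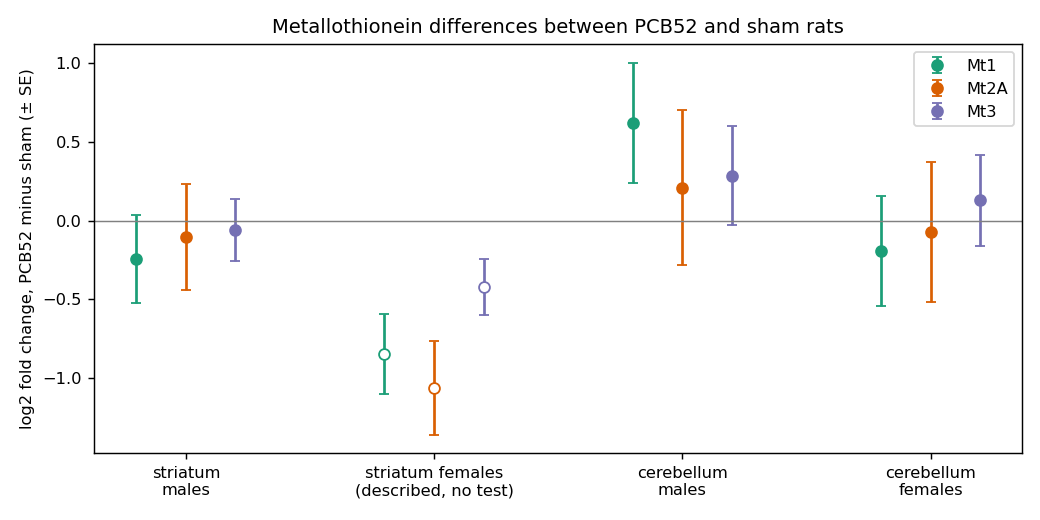
Log2 fold change of PCB52 minus sham rats (vertical axis) with its SE for each metallothionein gene, by region and sex (horizontal axis). Filled symbols were tested and none passed the threshold; open symbols are the striatal females, whose lower level was known when the genes were chosen.

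In the striatum of females, where the choice was made, Mt1 averaged 14.1 CPM in PCB52 rats and 25.2 CPM in sham rats, Mt2A 23.3 and 48.5 CPM, and Mt3 265 and 354 CPM. The log2 differences of PCB52 minus sham were -0.84 ± 0.25 (SE) for Mt1, -1.06 ± 0.30 for Mt2A and -0.42 ± 0.18 for Mt3. Of the 6 PCB52 females, 5 lay below the lowest sham female for Mt1, 3 for Mt2A and 3 for Mt3, and the exception for Mt1 was PCB52 female 18, at 22.1 CPM. For Mt3, PCB52 female 14 lay only just below, at 227.2 CPM against 227.4 CPM in sham female 6. The share of all genes with as many libraries below the sham range was not computed, so these counts are not a result about the members. Without sham female 12 the differences were -0.49, -0.54 and -0.28, and with the mean of a list of ribosomal protein genes as a covariate they were -0.39, -0.47 and -0.13. That library also had the highest ribosomal protein list mean in striatum, 8.83, and summed markers of meningeal fibroblasts of 2048 CPM, against a median of 335 CPM in its group. Another, PCB52 female 20, held 13645 CPM of summed choroid plexus markers against medians of 140 CPM in sham and 172 CPM in PCB52 females. PCB52 females 14 and 24 had summed projection neuron markers of 5781 and 5388 CPM, with 9614 to 12711 CPM in the other females, and cortical excitatory neuron markers of 428 and 407 CPM, with 9.41 to 284 CPM in the others. In PCB52 female 22 the mean log2 CPM of the granule and Purkinje markers was 6.36, against 2.89 to 3.84 in the others. Leaving out PCB52 female 14, 20, 22 or 24 alone gave -0.85 to -0.80 for Mt1, -1.08 to -1.01 for Mt2A and -0.48 to -0.37 for Mt3. The part of other cell types in the difference was not tested.

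Other contrasts that rest on those females are given likewise as descriptions. The female effect minus the male effect in striatum was -0.60 ± 0.38 (SE) for Mt1, -0.95 ± 0.45 for Mt2A and -0.36 ± 0.26 for Mt3, and without sham female 12 it was -0.25, -0.43 and -0.22. Sham females minus sham males gave 0.30 ± 0.28, 0.88 ± 0.34 and 0.30 ± 0.20, which without sham female 12 became -0.05, 0.36 and 0.16. PCB52 females minus PCB52 males gave -0.30 ± 0.26, -0.07 ± 0.30 and -0.06 ± 0.18.

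In the striatum of males no member differed between PCB52 and sham rats beyond the spread of the animals. The log2 differences were -0.25 ± 0.28 (SE) for Mt1, -0.11 ± 0.34 for Mt2A and -0.06 ± 0.20 for Mt3, each with an adjusted p of 1.00 by edgeR. Over all 12142 genes 0% were called (0 genes), 109 had an unadjusted p under 0.05, 1 was called by DESeq2 and 0 by limma. Of the PCB52 males, 1 of 6 lay below every sham male for Mt1, 0 for Mt2A and 2 for Mt3. How many of all genes had as many outside the sham range was not computed.

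In the cerebellum of males Mt1 had its largest positive value, 0.62 ± 0.38 (SE) on the log2 scale, and Mt2A and Mt3 had 0.21 ± 0.49 and 0.28 ± 0.31. None passed the test (edgeR adjusted p = 0.325, 0.779 and 0.533), and 0% of 11690 genes did. Without adjustment 1673 had a p under 0.05, and 1 gene was called by DESeq2 and 0 by limma. For Mt1, 3 of 5 PCB52 males, animals 15, 21 and 23, lay above every sham male. The share of all genes with as many above the sham range was not computed. Without PCB52 male 23 the values were 0.40 for Mt1, -0.09 for Mt2A and -0.01 for Mt3. Without PCB52 males 15 and 23, the 2 with a ribosomal list mean above 8.7, the value of Mt1 was 0.080, and with that mean as a covariate it was 0.017. Without the libraries that held transcripts of both sexes, sham males 9 and 11 here, the values were 0.88 for Mt1, 0.46 for Mt2A and 0.30 for Mt3, none past the threshold. PCB52 male 23 had the highest ribosomal protein list mean of all, 9.58, and 6201 CPM of summed meningeal fibroblast markers, against a median of 980 CPM in its group, and PCB52 male 15 held 4562 CPM. Among sham males these markers were highest in animal 9, at 3239 CPM, which also had the highest sham level of Mt1. Choroid plexus markers stood at 2745 CPM in sham male 1 and from 80.5 to 170 CPM in the other males, and 8 of 8 tested had a negative PCB52 minus sham difference (median -1.33). The part of these in the values was not tested.

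In the cerebellum of females the values were smaller than their SE: -0.19 ± 0.35 (SE) for Mt1, -0.07 ± 0.44 for Mt2A and 0.13 ± 0.29 for Mt3. Each had an edgeR adjusted p of 1.00. Again 0% of genes were called, 369 had an unadjusted p under 0.05, 10 were called by DESeq2 and 0 by limma. The Mt2A value rested on PCB52 female 20, at 92.2 CPM, since without it the difference was -0.75. Without the libraries of both sexes' transcripts Mt2A had -0.18 and Mt3 0.06. The values were not stable to the ribosomal list mean. With it as a covariate they were -0.45 for Mt1, -0.46 for Mt2A and -0.10 for Mt3. Without the libraries whose list mean was above 8.7 they were -0.61, -0.90 and -0.31. None of these passed the threshold. PCB52 females 22 and 24 were the 2 lowest cerebellar libraries for Mt2A, at 9.38 and 12.0 CPM.

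No contrast between the sexes passed in cerebellum, but the edgeR fit of all cerebellar libraries also missed a known difference. In PCB52 females minus PCB52 males, 0 of 3 sex-linked genes (Xist, Eif2s3y and Ddx3y) were called. Their median log2 difference was -11.2, and all 3 had an unadjusted p under 0.05. Without the libraries of both sexes' transcripts 5 genes were called there, and with only the libraries compared 4. Without the libraries of both sexes' transcripts no member passed in that comparison (edgeR adjusted p = 0.762 for Mt1, 0.867 for Mt2A and 0.825 for Mt3). The missed sex-linked genes do not say how often a difference in the members would be called. The female effect minus the male effect was -0.81 ± 0.52 (SE) for Mt1, -0.28 ± 0.66 for Mt2A and -0.16 ± 0.43 for Mt3 (edgeR adjusted p = 0.774, 0.850 and 0.867), with 0% of all genes past the threshold, 254 at an unadjusted p under 0.05, 4 called by DESeq2 and 0 by limma. Without the libraries of both sexes' transcripts it was -1.01, -0.64 and -0.24. Sham females minus sham males gave 0.29 ± 0.37, 0.47 ± 0.47 and 0.0031 ± 0.30 (each adjusted p = 1.00), with 0% called, 123 at an unadjusted p under 0.05 and 0 by either other tool, and became 0.49, 0.83 and 0.082 without those libraries. PCB52 females minus PCB52 males gave -0.52 ± 0.36, 0.19 ± 0.47 and -0.15 ± 0.30 (adjusted p = 0.708, 0.843 and 0.800), with 0% called, 379 at an unadjusted p under 0.05, 9 called by DESeq2 and 2 by limma. In males, the striatal effect minus the cerebellar effect was -0.88 ± 0.49 for Mt1, -0.32 ± 0.62 for Mt2A and -0.36 ± 0.39 for Mt3 (adjusted p = 0.490, 0.779 and 0.603), with 0% called, 808 at an unadjusted p under 0.05. On simulated counts, the striatal male fit recovered 76.0% of genes changed by a log2 fold of 1, and the cerebellar female fit likewise 76.0%. Each share is over 100 changed genes and was not computed for the metallothioneins. It therefore does not say how often such a change in Mt1, Mt2A or Mt3 would be called. In cerebellar females their PCB52 minus sham SE was 0.35, 0.44 and 0.29 on the log2 scale.

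Among animals of a group the 3 genes rose and fell together. Correlations were computed on deviations of log2 CPM from the group mean, over 22 libraries of a region, with two-sided permutation within groups and adjustment over 27 relations. In striatum Mt1 and Mt2A had r = 0.827 and rho = 0.749 (permutation adjusted p = 0.00189 and 0.00108), Mt1 and Mt3 r = 0.673 and rho = 0.612 (0.00436 and 0.00924), and Mt2A and Mt3 r = 0.670 and rho = 0.446 (0.0105 and 0.110). In cerebellum the same pairs had r = 0.684, 0.805 and 0.719 and rho = 0.736, 0.819 and 0.670 (permutation adjusted p of r = 0.00208, 7.42e-04 and 0.00185; of rho 8.55e-04, 8.55e-04 and 0.00498). Without the 2 libraries farthest on the x axis r was 0.576, 0.426 and 0.571 in striatum and 0.620, 0.735 and 0.628 in cerebellum. The points of a pair share a library, its depth and its RNA. The striatal libraries include the females behind the choice of genes. Among them, sham female 12 lay far above its group mean, at 52.9 CPM of Mt1 and 123 CPM of Mt2A. Removing group means does not take out that deviation. For correlations that use striatal levels, here and below, the p-values are therefore a description and not separate evidence. The cerebellar levels took no part in that choice.

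**Figure D4:**
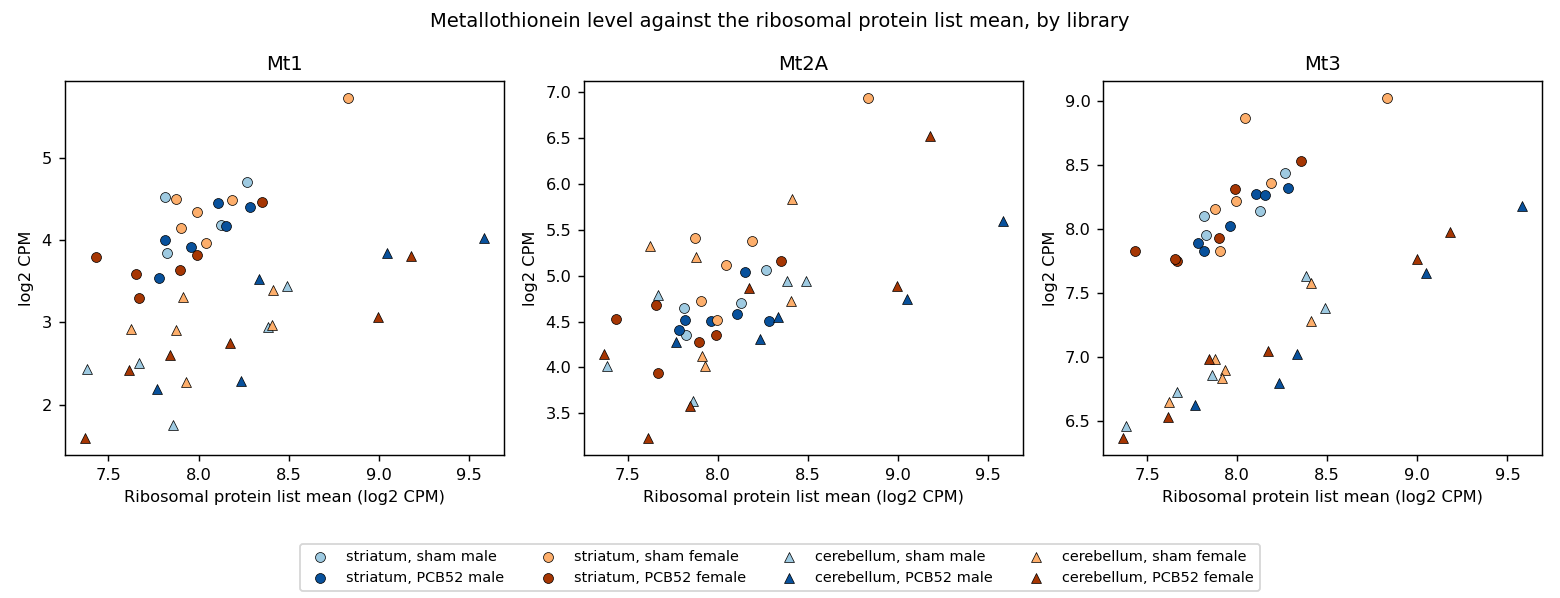
Log2 CPM of each metallothionein gene (vertical axis) against the mean log2 CPM of 76 cytosolic ribosomal protein genes (horizontal axis), 1 point per library; circles are striatum and triangles cerebellum, coloured by sex and treatment. Points rise from left to right within each region, and the cerebellar points of Mt3 lie closest to a line.

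The level of ribosomal protein messages moved with all 3 genes. The list of 76 genes was added after the data had been seen. Its mean correlated with Mt3 at r = 0.979 and rho = 0.957 in cerebellum (permutation adjusted p = 2.70e-04 and 1.35e-04) and at r = 0.830 and rho = 0.832 in striatum (4.05e-04 and 1.35e-04). For Mt1 r was 0.806 in cerebellum (rho = 0.834, permutation adjusted p = 8.10e-04 and 8.55e-04) and 0.800 in striatum (rho = 0.596, 0.00201 and 0.0140), and for Mt2A 0.695 (rho = 0.642, 0.00265 and 0.00803) and 0.727 (rho = 0.380, 0.00783 and 0.154). Without the 2 farthest libraries r was 0.968 and 0.714 for Mt3, 0.732 and 0.555 for Mt1, and 0.588 and 0.571 for Mt2A, cerebellum first. Mt3 moved by 0.90 log2 units per log2 unit of the list mean in cerebellum and by 0.94 in striatum.

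After the ribosomal list mean had been regressed out of both measures, the correlations between members no longer passed: Mt1 and Mt2A had r = 0.596 in striatum (permutation adjusted p = 0.0743) and 0.290 in cerebellum (adjusted p = 0.552), and the 4 pairs with Mt3 lay between 0.03 and 0.26. The list mean was above 8.7 in 5 libraries: striatum sham female 12, cerebellum PCB52 males 15 and 23, and cerebellum PCB52 females 16 and 20. Without them 3 of the 6 correlations between members stayed past the threshold: Mt1 with Mt2A (r = 0.642, permutation adjusted p = 0.0262) and Mt1 with Mt3 (0.535, adjusted p = 0.0404) in striatum, and Mt1 with Mt3 in cerebellum (0.622, adjusted p = 0.0404). The region differences were then 1.41 for Mt1, 1.24 for Mt3 and 0.22 for Mt2A, and Mt1 and Mt3 stayed past the threshold. With the list mean as a covariate, the cerebellar PCB52 minus sham difference of Mt3 turned from 0.28 to -0.33 in males and from 0.13 to -0.10 in females, and in both forms it did not pass. What sets the list mean in these libraries was not tested.

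Genes whose pattern was most like the members' were ranked by the lower of their r in the 2 regions, over 22 libraries each and 9623 genes, as a description. For Mt3 they were Rpl37l1 (0.944), Rpl36a (0.942), Rps27 (0.942), Rps29 (0.932), Rpl38 (0.930) and Coq7 (0.928), of which Coq7 encodes an enzyme of ubiquinone synthesis and the others are named for ribosomal proteins. For the mean of Mt1 and Mt2A they included Ndufa2 (0.834), a subunit of mitochondrial complex I, Psmb3 (0.828), a proteasome subunit, Rplp0 (0.826), a ribosomal protein gene, and Stk16 (0.826), a kinase.

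**Figure D5:**
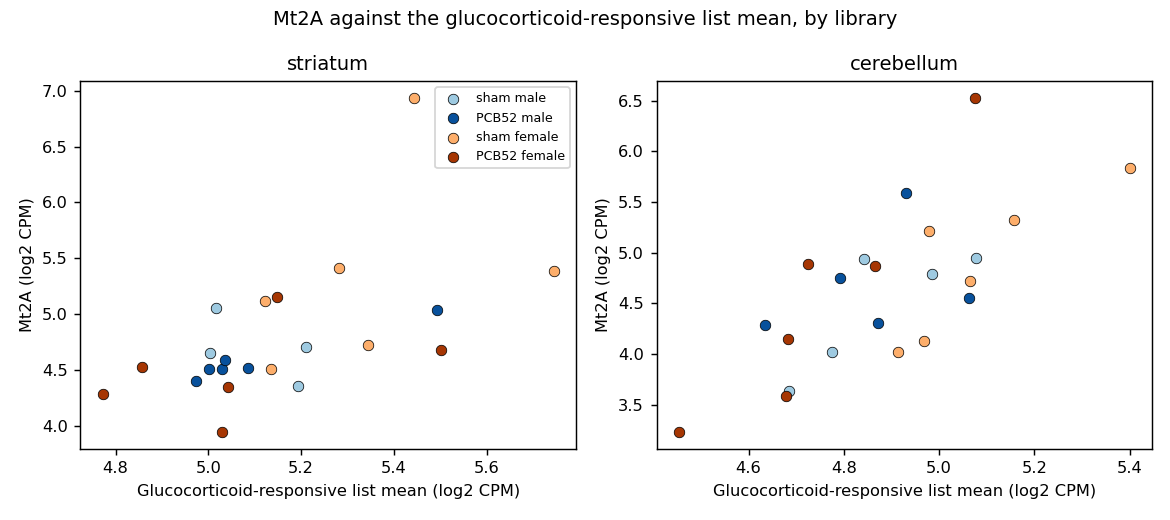
Log2 CPM of Mt2A (vertical axis) against the mean log2 CPM of the glucocorticoid-responsive list (horizontal axis), 1 point per library, in striatum and cerebellum, coloured by group. In cerebellum the points rise together, at r = 0.806 after group means were removed; in striatum r was 0.376.

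Mt2A in cerebellum was also related to a list of 22 genes taken as responsive to glucocorticoids, such as Fkbp5, Sgk1, Per1 and Tsc22d3. Of these, 21 were in the count tables and entered the list mean. The list also names the receptor gene Nr3c1, so it is not one of induced genes alone. Its correlation with the list mean was r = 0.806 and rho = 0.784 (permutation adjusted p = 7.20e-04 and 8.55e-04), 0.698 without the 2 farthest libraries, and 0.725 after the ribosomal list mean had been regressed out (adjusted p = 0.00819). Without the 5 libraries of high ribosomal mean it was 0.800 (adjusted p = 0.00108). Mt1 had r = 0.629 and rho = 0.634 in cerebellum (permutation adjusted p = 0.00789 and 0.00803), 0.572 without the 2 farthest, and Mt3 r = 0.524 and rho = 0.443 (0.0360 and 0.0920), 0.418 without them, but regressing out the ribosomal mean left 0.415 and 0.09, neither past the threshold. In striatum no member passed: r was 0.142 for Mt1, 0.376 for Mt2A and 0.0208 for Mt3 (permutation adjusted p = 0.646, 0.176 and 0.937), with rho of 0.194, 0.469 and 0.0288.

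The mean of 12 astrocyte markers, among them Gfap, Aqp4 and Aldh1l1, went the other way. In cerebellum it had r = -0.690 and rho = -0.702 with Mt1 (permutation adjusted p = 0.00940 and 0.00846) and r = -0.782 and rho = -0.791 with Mt3 (0.00184 and 0.00108), with -0.590 and -0.681 without the 2 farthest libraries. For Mt2A r was -0.403 (rho = -0.346, permutation adjusted p = 0.105 and 0.156). After the ribosomal list mean had been regressed out these 3 values turned positive, to 0.01, 0.57 and 0.53 for Mt1, Mt3 and Mt2A, none past the threshold. In striatum Mt1 had r = -0.540 (permutation adjusted p = 0.0490) but rho = -0.287 (0.281), and r = -0.204 without the 2 farthest libraries, so the relation rests on those libraries. For Mt2A and Mt3 r was -0.449 and -0.359 there (permutation adjusted p = 0.142 and 0.197), with rho of -0.138 and -0.281.

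No relation between an animal's 2 regions passed the test. Over 21 animals r between striatum and cerebellum was 0.0873 for Mt1 and -0.0921 for Mt3 (permutation adjusted p = 0.712 for both), with rho of 0.0558 and -0.158. For Mt2A r was 0.453 and rho 0.527 (permutation adjusted p = 0.0676 and 0.0631), and 0.281 without the 2 farthest animals. The Mt2A value was 0.643 after the ribosomal list mean had been regressed out (adjusted p = 0.0785) and 0.717 without the libraries of high ribosomal mean, where it passed (adjusted p = 0.0404).

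The other genes of metal handling were taken as a list of 45 genes, of which 39 were tested. In the PCB52 minus sham comparisons of striatal males, cerebellar males and cerebellar females, 0 of 39 were called by edgeR, DESeq2 or limma. By edgeR 2, 5 and 1 had an unadjusted p under 0.05, against 109 of 12142, 1673 of 11690 and 369 of 11690 among all genes. The median log2 difference of the 39 was 0.0030 in striatal males, -0.02 in cerebellar males and -0.01 in cerebellar females, against 0.00013, 0.0058 and 0.02 over all genes. Mtf1, the metal-responsive transcription factor, had -0.04 ± 0.19 (SE), -0.23 ± 0.20 and -0.23 ± 0.18 in these 3 comparisons. Slc30a1, the zinc exporter of the plasma membrane and a known MTF1 target, had -0.03 ± 0.13, -0.33 ± 0.19 and -0.09 ± 0.17, and Slc39a14, a zinc and manganese importer, 0.08 ± 0.11, -0.36 ± 0.18 and -0.05 ± 0.16. Slc30a3, the zinc transporter of synaptic vesicles in glutamatergic neurons, had 3.08 ± 1.31, -0.02 ± 0.38 and 1.01 ± 0.34, and none of these values passed. Its striatal level was 1.17 ± 0.45 CPM (SD, 4 sham males) against 9.70 ± 16.6 CPM (SD, 6 exposed males, from 0.642 to 43.2 CPM). Summed markers of cortical excitatory neurons ran there from 6.42 to 422 CPM, and their part in the Slc30a3 values was not tested.

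Between the regions 12 of the 39 metal-handling genes were called higher in striatum and 13 lower, or 30.8% and 33.3%, which are smaller shares than the 38.5% and 42.4% over all genes. Their median log2 difference was -0.01 against -0.04 over all genes. Besides Mtf1 (0.36 ± 0.09, SE, edgeR adjusted p = 6.39e-04) and Slc30a1 (0.80 ± 0.08, adjusted p = 1.99e-12), the genes higher in striatum were the iron storage subunit gene Ftl1 (0.99 ± 0.12), the iron exporter gene Slc40a1 (0.91 ± 0.07), the copper pump gene Atp7b (0.82 ± 0.13), the zinc importer gene Slc39a10 (0.77 ± 0.10), Slc39a5, Slc39a11, Slc39a12, Slc30a4, Slc30a7 and Gclc, the last of which makes glutathione. Those lower in striatum were Slc39a14 (-0.56 ± 0.07, adjusted p = 1.64e-09), the metal importer gene Slc39a8 (-1.73 ± 0.08), Slc39a6, Slc39a7, Slc39a13, Slc30a6, Slc30a9, Slc31a2, Slc11a2, the copper chaperone genes Ccs, Cox17 and Sco1, and Gclm. Slc30a3 did not pass (-0.46 ± 0.40, adjusted p = 0.282). In males alone 9 were higher and 12 lower, against 34.7% and 38.2% of all genes.

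Of the glucocorticoid-responsive genes, 0 of 21 in striatal males and 0 of 20 in cerebellar males or females were called by edgeR, DESeq2 or limma. By edgeR 0, 3 and 6 had an unadjusted p under 0.05. Among all genes 109 of 12142, 1673 of 11690 and 369 of 11690 had one, in the same order. In the cerebellum of females 19 of 20 had a negative PCB52 minus sham difference, with a median of -0.26 on the log2 scale against 0.02 over all genes, while in cerebellar males 11 of 20 were positive with a median of 0.04. Among cell type markers in cerebellar females, 8 of 8 of oligodendrocytes had a negative difference (median -0.54, 4 with an unadjusted p under 0.05, 0 called), as had 8 of 8 tested choroid plexus markers (median -0.44, 0 called). So had 8 of 9 meningeal fibroblast (median -0.22), 7 of 8 microglial (-0.096) and 9 of 12 astrocyte markers (-0.16). Those of granule and Purkinje neurons were mixed, with 6 of 10 positive, as were those of endothelium and pericytes, with 5 of 9. A link of these lists with the glucocorticoid-responsive genes was not computed here. Summed oligodendrocyte markers ran from 6582 to 14613 CPM in sham and from 4918 to 11083 CPM in PCB52 females, and their part in the difference was not tested. Among the glucocorticoid-responsive genes, Sgk1, a kinase, had -0.58 ± 0.22 (SE) in cerebellar females, -0.02 ± 0.24 in cerebellar males and -0.10 ± 0.26 in striatal males. Fkbp5, which binds the glucocorticoid receptor complex, had -0.23 ± 0.11, 0.05 ± 0.12 and 0.16 ± 0.11, and Tsc22d3, which encodes the leucine zipper protein GILZ, had -0.25 ± 0.18, 0.20 ± 0.20 and -0.16 ± 0.13. In the striatum of females, which was described only, the median was -0.36, with 18 of 21 genes negative.

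Between the regions 9 of 21 glucocorticoid-responsive genes were called higher in striatum and 5 lower, or 42.9% and 23.8%, against 38.5% and 42.4% of all genes, with a median of 0.17 against -0.04 over all genes. Higher in striatum were Fkbp5 (1.71 ± 0.06, SE, edgeR adjusted p = 4.27e-27), Sgk1 (1.11 ± 0.13, adjusted p = 2.53e-10), Zbtb16 (1.32 ± 0.24), Cdkn1a (1.17 ± 0.21), Angptl4, Per1, Pdk4, Cebpb and Tsc22d4. Lower in striatum were Bcl6 (-1.98 ± 0.11), Tsc22d3 (-0.68 ± 0.08, adjusted p = 1.68e-09), Dusp1, Errfi1 and Ddit4.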

How the data were processed

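RNA of striatal and cerebellar punches of rats was sequenced. Per the labels, TRIzol and spin columns gave the RNA, followed by either poly(A) capture or ribosomal RNA removal. The submitters' processing notes name FastQC, HISAT2 and the build rn6. No counter, annotation or strand setting is given in the sources used here. The values deposited by the authors are raw whole-number counts, 1 table per region. Of their gene identifiers 15230 of 15319 (99.4%) matched a symbol in a table of the assembly GRCr8, used for names and promoter windows only. Columns were present for 44 of 47 samples, and sham males 5 and 7 of striatum and 5 of cerebellum were not analysed here.

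Tests were edgeR 4.0.16's quasi-likelihood F-test (R 4.3.3) with TMM normalization, its default low-count filter and robust dispersion, two-sided, adjusted by the Benjamini-Hochberg method over all genes tested, with a threshold of 0.05. Each region was fitted with 4 group means (12142 genes in striatum, 11690 in cerebellum), and both regions together with 8 (12446 genes). CPM were scaled by TMM-adjusted library size over all 44 libraries, and log2 CPM used a prior count of 2. Permutation tests drew 100000 resamples within groups (NumPy 2.4.6, pandas 2.3.3). The edgeR fits were tested on simulated counts first. The animal number in the titles ties the 2 regions of 21 animals. Over 10564 genes, deviations from group means correlated between the regions of an animal with a median r of 0.0969 (range -0.53 to 0.62), and over 0.1 in 10 animals.

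The 3 genes and the lists of metal-handling, glucocorticoid-responsive and cell type marker genes were chosen with earlier results of these data known. The rule for other genes named the 6 most like Mt3 and the 6 most like the mean of Mt1 and Mt2A, with a mean of at least 5 CPM, every list gene past the threshold in a tested comparison, and 7 list genes in any case. Of the genes most like the mean of Mt1 and Mt2A, 2 are not reported here. Alternatives were RLE size factors, library totals, no filter on low counts, DESeq2 1.42.0, limma 3.58.1 voom with sample weights, only the libraries compared, leaving out libraries holding transcripts of both sexes, leaving out each library, the animal as a block, and for correlations a prior count of 0.5 or group means kept. Alternatives with the ribosomal protein list, and the ratio of Mt2A to Mt1, were added after seeing the data.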

Additional observations from a re-analysis of the deposited data

Results flagged for a closer look

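In 24 combinations of gene and group, the gap between the highest or lowest library and the next was set against the group's range. The gap was compared with Dixon's limit, which normally distributed values would pass in about 1 in 20 groups. CPM were used without a log, and the genes of a library moved together, so that rate need not hold here. Some of the groups are the striatal females behind the choice of genes. The flags are therefore a description. The highest library stood out in 6 of the 24 combinations. These were Mt1 and Mt2A in striatum sham female 12, at 52.9 and 123 CPM, Mt1 in striatum PCB52 female 18, at 22.1 CPM, Mt2A in striatum PCB52 male 21, at 32.9 CPM, and Mt2A in cerebellum PCB52 female 20 and PCB52 male 23, at 92.2 and 48.2 CPM. All 6 lay on the high side. Sham female 12, PCB52 female 20 and PCB52 male 23 had ribosomal protein list means over 8.7, and PCB52 female 18 had the highest list mean of its group in striatum, 8.35. In PCB52 male 21 it was 8.15, with a highest value of 8.28 in its group. The part of the list mean in these levels was not tested.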

How the results depend on the processing

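The threshold was kept by all 726 tested values of the 3 genes under the alternatives, and 665 kept their sign too. The other 61 changed sign, all of them values that had not passed. With the animal as a replicate block, the paired fit, no call changed: the region difference was 1.23 for Mt1, 0.09 for Mt2A and 1.06 for Mt3. Mt2A, striatum minus cerebellum in males (-0.013), became 0.023 with RLE size factors, 0.0021 with library totals, 0.020 with DESeq2, 0.21 with limma, 0.0059 with only the libraries compared, 0.10 without libraries of both sexes' transcripts, 0.11 with the ribosomal list mean as a covariate and 0.20 without the libraries above 8.7. With that covariate, Mt2A in cerebellar males became -0.44 (PCB52 minus sham), Mt3 -0.33 in males and -0.10 in females, the cerebellar female minus male effect of Mt3 0.23, PCB52 females minus males of Mt3 0.19, sham females minus males of Mt3 -0.031, the male striatal minus cerebellar effect 0.34 for Mt2A and 0.26 for Mt3, and the described striatal female minus male effects -0.12, -0.36 and -0.062 for Mt1, Mt2A and Mt3. Without the libraries above 8.7, Mt2A in cerebellar males became -0.19, Mt3 -0.27 in males and -0.31 in females, PCB52 females minus males of Mt2A -0.26, sham females minus males of Mt3 -0.0054, the male striatal minus cerebellar effect 0.065 for Mt2A and 0.19 for Mt3, and the striatal female minus male effect of Mt2A -0.43. By limma, PCB52 females minus males of Mt2A in cerebellum was -0.18 and Mt3 in cerebellar females -0.072. Sham females minus males of Mt3 was -0.0026 with RLE size factors, -0.0027 with DESeq2 and -0.0036 with only the libraries compared. The cause of these turns was not tested.

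Leaving out 1 library at a time gave, for Mt2A, -0.75 to 0.16 in cerebellar females, -0.090 to 0.32 in cerebellar males, -0.95 to 0.016 for the female minus male effect, -0.49 to 0.48 for PCB52 females minus males, -0.082 to 0.14 and -0.10 to 0.19 for the region difference in males and over all groups, -0.21 to 0.032 in striatal males and -1.11 to -0.43 for the described striatal female minus male effect. For Mt3 it gave -0.075 to 0.25, -0.014 to 0.46, -0.36 to 0.14 and -0.36 to 0.14 for the first 4 of these, -0.12 to 0.17 for sham females minus males in cerebellum and -0.12 to 0.045 in striatal males. The region differences stayed between 1.16 and 1.32 for Mt1 and between 0.97 and 1.08 for Mt3 over all groups, and between 1.09 and 1.32 and between 0.84 and 1.06 in males.

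Genes called among all genes rose from 0 by edgeR to 10, 1, 4, 9 and 1 by DESeq2 in cerebellar females, cerebellar males, their difference, PCB52 females minus males and striatal males. For PCB52 females minus males they were 2 by limma, 5 without libraries of both sexes' transcripts, 4 with only the libraries compared and 1 with the ribosomal covariate, and for sham females minus males 4 without libraries of both sexes' transcripts and 2 without cerebellum sham female 8.

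Among correlations, regressing out the ribosomal list mean gave, in striatum, 0.596, 0.0289 and 0.175 for Mt1 with Mt2A, Mt1 with Mt3 and Mt2A with Mt3, -0.0520 and -0.290 for Mt1 and Mt3 with the glucocorticoid-responsive list, and -0.202 and 0.206 for Mt1 and Mt3 with astrocyte markers. In cerebellum it gave 0.290, 0.137 and 0.264 for the pairs, 0.415 and 0.0875 for Mt1 and Mt3 with the glucocorticoid-responsive list, and 0.0102, 0.532 and 0.572 for Mt1, Mt2A and Mt3 with astrocyte markers. Mt1 between the regions became -0.0470. Without the libraries above 8.7, values in striatum were 0.532 for Mt2A with Mt3, -0.0431 for Mt3 with the glucocorticoid-responsive list, -0.258 for Mt1 with astrocyte markers and 0.498 for Mt2A with the ribosomal list. In cerebellum they were 0.476 and 0.504 for Mt2A with Mt1 and with Mt3, 0.532 for Mt3 with the glucocorticoid-responsive list, -0.326, 0.210 and -0.399 for Mt1, Mt2A and Mt3 with astrocyte markers and 0.424 for Mt2A with the ribosomal list. Between the regions Mt2A became 0.717 and Mt3 0.200. With group means kept, Mt2A with the glucocorticoid-responsive list in striatum was 0.564, now past the threshold, and Mt3 with it in cerebellum 0.364, no longer past it. Without libraries of both sexes' transcripts, Mt1 with astrocyte markers in striatum was -0.542 and Mt3 with the glucocorticoid-responsive list in cerebellum 0.544, both no longer past it.

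Depth limits Mt1 most, with 25 to 119 counts per cerebellar library, against 618 to 2086 for Mt3. Groups of 4 to 6 animals, a sham female library that carries much of the striatal female difference, and an unstated counter and strand limit what these values show.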
